A study of Mus musculus with 11 samples.

Results

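The low-count cells of cluster 3 were a small, mixed group of mostly non-neuronal cells captured from the mouse stellate ganglion, which holds sympathetic neurons of the upper body. They were the cells that the authors' annotation places in cluster 3 and that held at most 30000 counts. They numbered 54 of the 878 cells in the table, or 6.15% (95% Clopper-Pearson interval 4.65 to 7.95), and 54 of the 101 cells of cluster 3. Both the cluster and the count limit come from measured values, so the differences in gene level below are descriptions, without a test. The label of these cells as endothelial and stromal held for 34 of the 54: 25 had an endothelial-like profile, 7 a fibroblast-like profile and 2 both. Of the other 20, 5 had a glial-like profile and 15 had none of these.

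The ganglia came from 6 male C57BL/6J mice aged 6 to 8 weeks. Each had been injected 3 days before with 2 cholera toxin subunit tracers that axon endings take up, CTB-555 in interscapular brown fat (iBAT) and CTB-488 in a forelimb. Each of the 3 sets is a pool of the ganglia of 2 mice, sorted as single cells into 4, 4 and 3 plates. No group lacked the tracers and the labels name no treatment, so the sets are replicates of 1 condition (n = 3), and a set stands for a pool and not for a single animal.

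Blood vessels of a ganglion are lined by endothelial cells, which join through VE-cadherin and claudins, respond to VEGF through its receptors and, in capillaries, are wrapped by pericytes, the mural cells of small vessels. Fibroblasts lay down the connective tissue of the capsule and septa, and satellite glia cover the neuron bodies. All of these cells are smaller than sympathetic neurons.

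The members held 187436 counts in all. A member had 1536 to 18608 counts, with a median of 2683.5, and 1004 to 5080 detected genes, with a median of 1531.5. The member with 1004 genes was the lowest cell of the whole table. The 2 members with the most counts held 9804 and 18608, and the cluster 3 cell next above the limit held 52105, so no cell of the cluster lay close to 30000. The 777 cells of clusters 1, 2 and 4, called neurons below because they express the sympathetic neuron genes, had a median of 32966 counts (3012 to 95167). The other 47 cells of cluster 3 had a median of 68061. A level below is the summed counts of a gene or list per 10000 summed counts, so the deeper cells weigh more within a set.

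**Figure D1:**
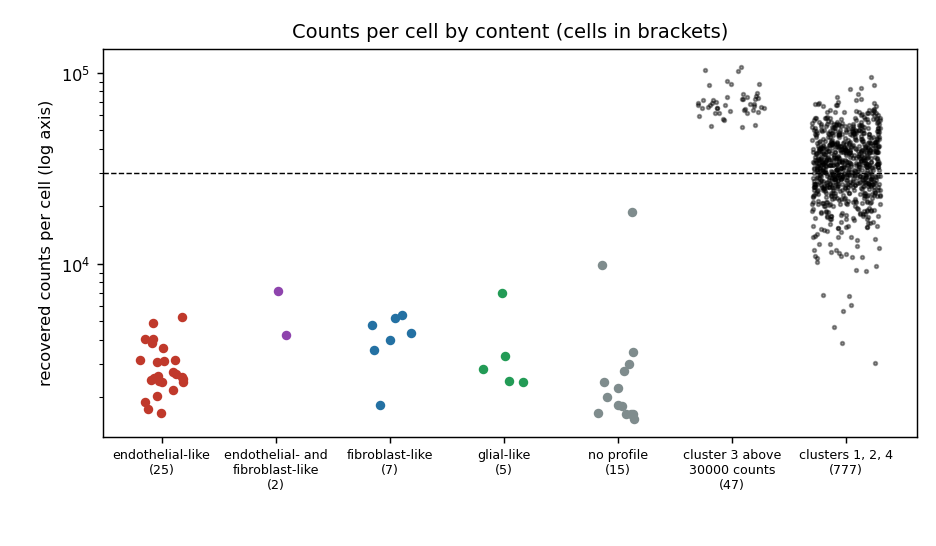
Recovered counts per cell on a log axis, 1 point per cell, with members in colour by content and other cells in black. The dashed line is the limit of 30000 counts: members lie between 1536 and 18608, the other cluster 3 cells above 52105.

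A member of the endothelial-like class had at least 1 count of at least 3 of 15 core endothelial genes, a fibroblast-like member at least 6 of 11 fibroblast genes and a glial-like member at least 8 of 12 genes of satellite glia and Schwann cells. These limits were set after the distributions were seen. Near the endothelial limit, 3 members had 2 of the genes, 1 had 3 and 1 had 4. No member had 4 or 5 of the fibroblast genes, or 5 to 7 of the glial genes. Erg, Lum, Pdgfra and Dpt, which were on these lists, were not analysed here.

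A group of 3 members stood apart and bears on several results. They shared 1 of the 96 cell barcodes, lay on plates 6, 7 and 8 of Set 2, and held 428, 546 and 541 counts of the olfactory receptor gene Olfr1109. With RP23-99K2.3, D630023O14Rik, Gm37144 and Sec61a1, these genes made up 26.9%, 18.4% and 17.9% of the counts of the 3 cells. The same barcode on plate 5 belonged to a cluster 1 cell with 455 counts of Olfr1109, and on the 4 other plates where it is listed its cell held 21 to 66. No other member had more than 2 counts of Olfr1109. Of the 3 members, 2 had no profile and 1 was glial-like. The level of Olfr1109 over all members was 81.5 per 10000 with them and 0.718 without, against 0.387 in neurons. They also held 15 of the 66 Pecam1 counts, so its level over all members was 3.52 per 10000 with them and 3.05 without, and had no count of another core endothelial gene.

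The promoters of the endothelial markers are shown because these genes were detected together in the same cells, and because ETS family factors, which bind a GGAA core, are known regulators of endothelial genes. Of the 7 marker genes, 5 were matched in the promoter table used here, from RefSeq (GRCm38.p6), of the build of the files. Cdh5 and Pecam1 are named only. The sequences run 5′ to 3′ from 250 bases before to 50 after the start, and capitals mark AGGAAG on either strand (CTTCCT where it lies on the other strand). Flt1 lies on the minus strand at chr5:147725962-147726261, the first of 3 listed Egfl7 starts on the plus strand at chr2:26580833-26581132 and Cldn5 on the plus strand at chr16:18776597-18776896.
Flt1: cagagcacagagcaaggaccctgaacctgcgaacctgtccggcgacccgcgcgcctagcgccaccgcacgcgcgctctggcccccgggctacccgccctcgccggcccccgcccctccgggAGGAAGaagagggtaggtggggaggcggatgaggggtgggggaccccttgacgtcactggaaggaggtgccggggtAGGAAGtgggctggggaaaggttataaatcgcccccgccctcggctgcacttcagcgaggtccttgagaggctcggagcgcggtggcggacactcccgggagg
Egfl7: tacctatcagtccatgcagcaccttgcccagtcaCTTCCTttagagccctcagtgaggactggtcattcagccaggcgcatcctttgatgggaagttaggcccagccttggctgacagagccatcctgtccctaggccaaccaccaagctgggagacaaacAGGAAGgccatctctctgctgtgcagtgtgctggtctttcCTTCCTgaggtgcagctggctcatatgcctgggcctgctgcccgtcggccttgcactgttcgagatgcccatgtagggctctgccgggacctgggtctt
Cldn5: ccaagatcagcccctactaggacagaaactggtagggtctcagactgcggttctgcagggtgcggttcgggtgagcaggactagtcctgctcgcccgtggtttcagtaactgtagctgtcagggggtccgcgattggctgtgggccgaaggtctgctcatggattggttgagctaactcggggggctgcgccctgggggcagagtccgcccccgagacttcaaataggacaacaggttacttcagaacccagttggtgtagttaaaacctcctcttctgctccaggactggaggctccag
The search used CGGAAG and AGGAAG on both strands, and no 2 of the matches given here overlap. Flt1 held AGGAAG at -129 and -53 from the start. Egfl7 held it at -216, -89 and -49 at this start and 2 times at its second start. None was found in the window of Cldn5, Rgs5, Col1a2 or the third start of Egfl7. Of 32851 promoters of the same length, 46.5% held at least 1 match, 15.9% at least 2 and 4.71% at least 3, so these matches are a description of the letters only.

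Pecam1 (chr11:106654213-106715281), the adhesion protein CD31, had 66 counts in 21 of the 54 members. Its level was 3.34, 3.19 and 4.74 per 10000 in Sets 1, 2 and 3, or 3.76 ± 0.853 (SD, n = 3), against 0.0385 ± 0.0136 in neurons. Every set of members was above every set of neurons. It was detected in 13.1% of neurons despite their greater depth.

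Flt1 (chr5:147561604-147726438), a receptor for VEGF, had 63 counts in 23 members, at 7.58, 2.06 and 1.95 per 10000 by set, and was found in 1.80% of neurons. Cdh5 (chr8:104101613-104144504), or VE-cadherin, had 23 counts in 15 members, at 2.23, 0.750 and 1.39 per 10000. No neuron held a Cdh5 count, and 0 of 777 cells allows a share of cells with a count of up to 0.386%, taking 3 cells as the limit; cells that express the gene below detection are not covered. Cldn5 (chr16:18776847-18778262), the tight junction claudin of endothelium, had 17 counts in 10 members, at 2.45 and 1.67 per 10000 in Sets 1 and 3, and none in Set 2.

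Egfl7 (chr2:26581083-26592682), a protein secreted by endothelial cells, was the marker that set these cells apart least, because neurons also carried it. It had 80 counts in 22 members, at 8.03, 2.16 and 5.85 per 10000. Neurons held 1.01, 0.986 and 1.33 per 10000, and 91.5% of them had a count. Rgs5 (chr1:169655501-169695813), a regulator of G protein signalling known as a pericyte marker, had 172 counts in 21 members, at 22.3, 2.63 and 12.3 per 10000. Of these members, 4 had a single Rgs5 count. Neurons held Rgs5 at 0.483 ± 0.168 per 10000 (SD, n = 3), and 51.9% of them had a count. Col1a2 (chr6:4505618-4541543), a chain of type I collagen, had 33 counts in 13 members, 31 of them in Set 2, none in Set 3. For these 7 markers together, 13 of the 54 members had no count.

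Endothelial content was found in 27 members, the 25 endothelial-like cells and the 2 that also had a fibroblast profile, or 50.0% (36.1 to 63.9). By set it was found in 12 of 15, 8 of 31 and 7 of 8 members. The interval treats cells as independent, and the share of no single set lies within it. Detection rises with depth, so the same count was made after thinning every cell to 1500 counts, which kept all 54 members. It then held for 27 of 54 members, 0 of 777 neurons and 0 of the other 47 cluster 3 cells. For the last 2 groups the same limit of 3 cells allows up to 0.386% and 6.38%. Counted over only the 27 members found without thinning, it held for 25. Thinning cannot add genes, so the 27 and the 25 cannot come from the same random draw. Without thinning, 13.6% of neurons and 38.3% of the other cluster 3 cells reached 3 genes. By level, 32 of the 54 members lay above the highest neuron, which held 6.18 per 10000 of the 15 core genes. These were the 27 and 5 without an endothelial profile, which held 2 to 8 core counts each: 3 of no profile, 1 fibroblast-like and 1 glial-like, and 2 of the 5 were cells of the shared barcode with Pecam1 counts only.

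**Figure D2:**
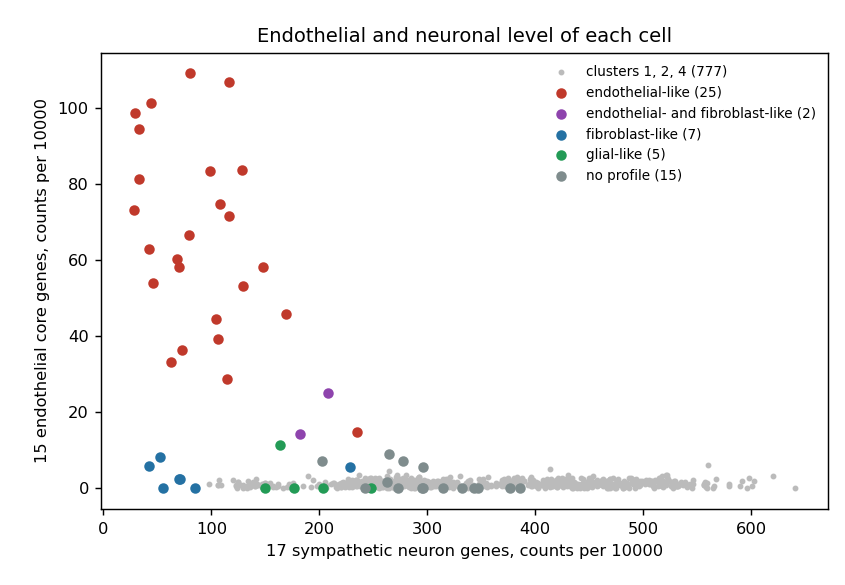
Each point is a cell, with the summed level of 17 sympathetic neuron genes on the x axis and of 15 endothelial core genes on the y axis, both in counts per 10000. The endothelial-like members lie at 14.8 to 109 on the y axis, where no neuron exceeds 6.18.

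The 25 endothelial-like cells came from 10 of the 11 plates, with 12, 6 and 7 cells from Sets 1, 2 and 3, and had 1654 to 5255 counts each. They held 6 to 40 core endothelial counts, with a median of 19. Their summed core level was alike in the 3 pools, at 64.4, 60.9 and 71.2 per 10000, or 65.5 ± 5.21 (SD, n = 3), against 1.34 ± 0.198 in neurons. Ptprb, an endothelial phosphatase, was found in 20 of the 25, and the junction protein Esam and Flt1 in 21 each. Kdr, the main VEGF receptor, had 18 counts in 10 cells, Tie1 12 in 8 cells and Tek, the angiopoietin receptor, 11 in 9 cells.

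Across all genes, 353 of 11201 tested, or 3.15%, were at least 4-fold higher in members than in neurons in each of the 3 sets, and 7, or 0.0625%, were at least 4-fold lower. The median gene had a ratio of 0.784. For the endothelial-like cells alone, 395 of 10929 genes, or 3.61%, were higher by this rule and 18, or 0.165%, lower. A gene passed the filter when the mean of both levels reached 0.05 per 10000, so a gene found in members only could pass through them alone, on few counts. With no filter on low values the numbers over all members were also 353 and 7. Lama4, called higher in the endothelial-like cells, had 1 count in each set. The numbers of called genes follow from how the cells were clustered, and nothing is read from them as support.

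Of the 15 core endothelial genes, 8 were higher by this rule over all members and 9 in the endothelial-like cells, where Egfl7 was added; the latter were also chosen for having at least 3 of these genes, so this count follows from the choice. Of the 10 tested cell junction genes in endothelial-like cells, 7 were higher, among them Jam2 with 20 counts in 11 cells. Of the called ones, Cdh5, Esam and Pecam1 are core genes, so their calls also follow from the choice. Angiopoietin-Tie genes were higher in 0 of 3 tested there, since Tie1 had no count in Set 1 and Tek none in Set 2. Of 7 tested VEGF genes, Flt1 and the co-receptor Nrp1 were higher, Nrp1 at 4.21 ± 1.44 per 10000 (SD, n = 3). Flt1 is a core gene used in the choice as well, and so are Tie1 and Tek. The other pathway lists below are given for the same 25 cells.

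Genes of fenestrated and peripheral capillaries were prominent. Plvap, which forms the diaphragms of fenestrae and caveolae, had 165 counts in 21 of the 25 cells, at 22.0, 17.1 and 29.5 per 10000 by set, or 22.9 ± 6.23. Neurons held 0.0193 ± 0.00240. Gpihbp1, which anchors lipoprotein lipase in capillaries, had 55 counts in 15 cells, the water channel Aqp1 110 in 18 and Rgcc 106 in 22. Fabp4, a fatty acid binding protein of capillaries, had 35 counts in Set 1, 23 in Set 3 and none in the 6 cells of Set 2. Of the 7 tested capillary genes, 5 were higher in every set, and the summed level was 72.7, 31.3 and 101 per 10000, or 68.4 ± 35.1.

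Of the 11 measured genes on the list for barrier endothelium and transport, 8 had counts in the same cells, and Slc16a1, Slco1c1 and Ocln had none. Abcb1a, the efflux pump P-glycoprotein, was found in 16 of the 25 cells with 31 counts, and Abcg2, another efflux pump, in 17 with 57 counts. Ly6c1 had 165 counts in 23 cells and Ly6a 89 in 21. Slc2a1, the glucose transporter of barrier endothelium, had 4 counts in 4 cells, while 15 of its 21 counts over all members lay in fibroblast-like cells. Mfsd2a, the lipid transporter, had 7 counts in 3 cells. The summed level was 51.8 ± 9.47 per 10000 (SD, n = 3), against 2.67 ± 0.478 in neurons, and 4 of 9 tested genes were higher in every set. Abcb1a itself was not among them, because neurons held it at 1.73 ± 0.514.

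Plvap and Abcb1a occurred together in 13 cells, and 1 cell had neither. Over the 25 cells the capillary level and the barrier level had a Pearson r of -0.443 and a Spearman rho of -0.533. The cells share plates and the denominators of the levels, and many values rest on few counts, so this is a description. The plot of both levels shows cells high in one or the other and few high in both.

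**Figure D3:**
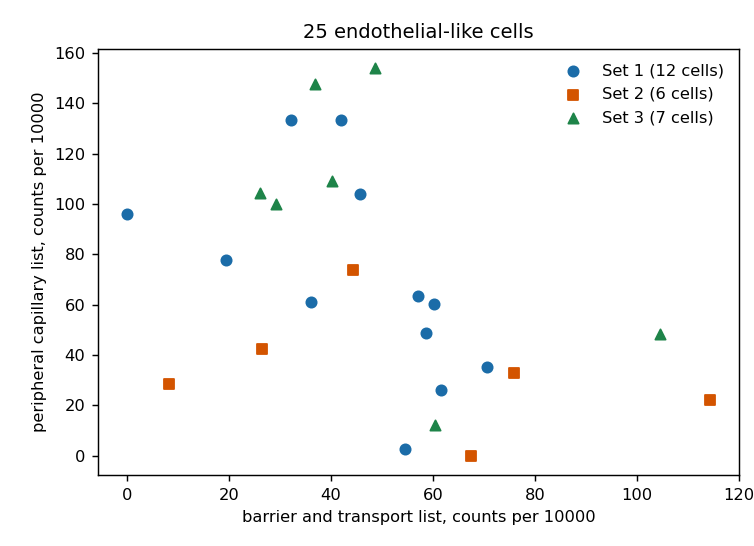
Summed barrier and transport level (x) against summed peripheral capillary level (y), in counts per 10000, for the 25 endothelial-like cells by set. The r of -0.443 over all cells is visible as an empty upper right corner, and the 6 Set 2 cells lie at 0 to 73.9 on the y axis.

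Markers of larger vessels were found in part of the cells. Vwf, stored by endothelial cells of larger vessels, had 40 counts in 16 of the 25 cells. Selp or Ackr1, known as markers of venules, were found in 4 cells. Selp had 5 counts in 3 cells, and no neuron held a Selp count. Ackr1 had 3 counts in 2 cells, at 0.4118 per 10000. Neurons held Ackr1 at 0.4955 per 10000, and 72.07% of them had a count. Ackr1 therefore did not set these cells apart from neurons. Lrg1 had 24 counts in 4 cells, 14 of them in a single cell. Sox17, an arterial transcription factor, had 13 counts in 7 cells, none of them in Set 2, and Gja4 had 1 count. Of 5 tested arterial genes, 0 were higher in every set. Of 6 venous genes Nr2f2, Vwf and Vcam1 were, but 46 of the 73 Nr2f2 counts over all members lay in fibroblast-like cells and 8 in endothelial-like cells. In the endothelial-like cells of Set 2, Nr2f2 and Vcam1 had 1 count each. All 7 Vcam1 counts of Set 3 lay in 1 cell.

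Hes1, Id3 and Epas1 were detected in nearly every endothelial-like cell, and the other genes of the Notch, BMP and transcription factor lists in fewer. Hes1, a target of Notch, was found in all 25 cells with 6 to 33 counts each, at 60.8, 50.8 and 63.6 per 10000 by set, or 58.4 ± 6.73 (SD, n = 3). Its neuronal level was 0.303 ± 0.0395. It was also present in fibroblast-like cells, with 60 counts in 6 of the 7. Id3, a target of BMP signals, was found in all 25 with 215 counts and Id1 in 19 with 66. Of the 11 tested transcription factors, 6 were higher in every set: Epas1, the hypoxia factor HIF-2alpha, in 24 of the 25 cells, Klf4 in 20 and Klf2 in 18, both known to respond to blood flow, Mef2c and Ets1 in 12 each and Ets2 in 9. Hes1 was the only called gene of 7 on the Notch list, and the ligand Jag1 and the receptor Notch1 had 6 counts each.

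Basement membrane genes followed: Sparc had 138 counts in 23 cells, Sparcl1 70 in 22, Col4a1 24 in 15 and Col4a2 13 in 11, and 6 of 11 tested genes were higher in every set. MHC class I genes, which present peptides on all cells, held 116 ± 18.8 per 10000 in endothelial-like cells and 20.2 ± 3.10 in neurons. B2m, the light chain, had 527 counts in all 25, and 3 of 6 genes, B2m, H2-K1 and Tap2, passed the 4-fold rule. Over all 54 members none of the 6 did.

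Immediate early genes, which dissociation of tissue is known to induce, were high in the endothelial-like cells. The summed level was 101, 56.7 and 126 per 10000 by set, or 94.7 ± 35.1 (SD, n = 3), against 6.40 ± 2.04 in neurons of the same plates and sort. Of 15 tested genes 13 were higher in every set, among them Dusp1 with 118 counts in 24 cells, Junb with 101 in 21, Ier3 with 99 in 19 and Fos with 59 in 22. Over the 25 cells this level had an r of 0.512 with the capillary level. Its part in the other results was not tested.

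Mural content was mostly found together with endothelial content. Rgs5 was detected in 21 members, 18 of them with an endothelial profile. The 8 members with 3 or more of 9 mural genes all had an endothelial profile too. No mural class was set, and some endothelial-like cells held more mural than core endothelial counts. A plate 11 cell of 1654 counts held 14 and 6, and a plate 3 cell of 3152 counts 22 and 14. Over the 25 endothelial-like cells the medians were 6 mural and 19 core counts. Of 14 members with at least 2 counts of mural genes other than Rgs5, 10 had endothelial content and 4 were fibroblast-like. In the 17 endothelial-like cells with Rgs5 the gene had up to 20 counts. Higd1b, a pericyte gene, had 21 counts in 10 members, and Kcnj8, a potassium channel subunit of pericytes, 11 counts in 3, all endothelial-like. On plate 3, a cell of 2658 counts held 12 Rgs5, 7 Kcnj8 and 1 Higd1b beside 19 core endothelial counts, and one of 2573 counts held 12, 3 and 2 beside 15.

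The mural level of endothelial-like cells differed between pools, at 34.2, 3.55 and 34.1 per 10000 in Sets 1, 2 and 3, or 23.9 ± 17.7. Set 2 cells had 6 Rgs5 counts, and no Higd1b or Kcnj8. A difference between 3 pools was not tested. Vtn, also on the mural list, had 9 of its 11 counts in fibroblast-like cells and none in endothelial-like ones. Smooth muscle genes were sparse: Acta2 had 3 counts, Mylk 5 and Cnn1 none, while Myl9 had 44 counts, 21 of them in fibroblast-like cells. Tagln and Myh11 were not analysed here. No doublet caller was run, and 2 cells in 1 well and 1 cell with transcripts of a neighbour cannot be told apart here.

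**Figure D4:**
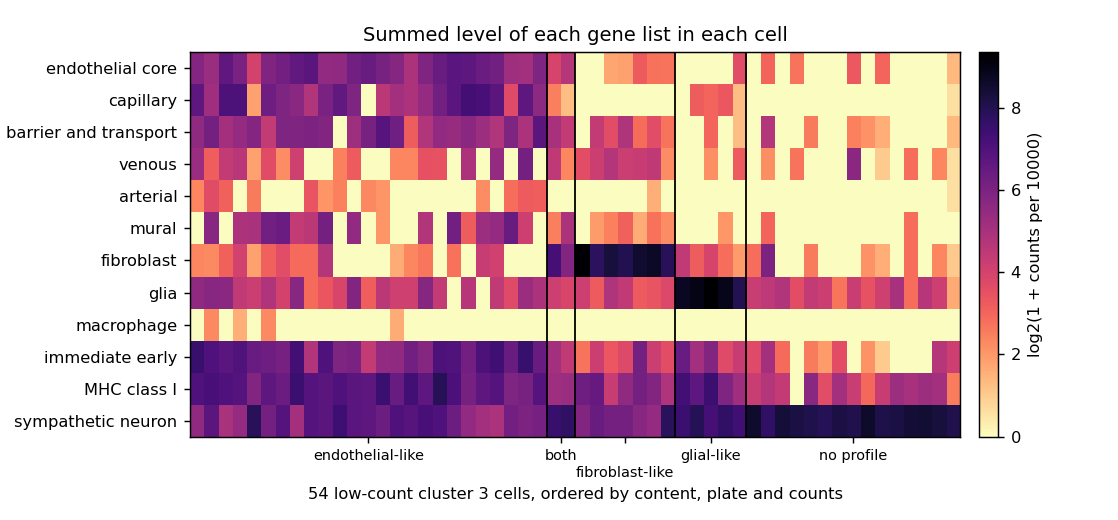
Summed level of 12 gene lists (rows) in each of the 54 members (columns), as log2(1 + counts per 10000), grouped by content. Mural levels are highest in cells of the endothelial-like block and low in the fibroblast-like one, and the neuronal row is present in every member and highest, pooled over cells, in the block with no profile.

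The 7 fibroblast-like cells were 1 on plate 1, 2 on plate 6, 3 on plate 7 and 1 on plate 8. They held 79 to 214 counts of the 11 fibroblast genes, against a level of at most 15.1 per 10000 in any neuron; their own levels ran from 224 to 634. Dcn, decorin, a proteoglycan that binds collagen, had 27, 40, 85, 86, 91, 133 and 133 counts in the 7 cells. In endothelial-like cells, glial-like cells and cells of no profile it had none, and the 2 cells with both profiles held 26 and 45. Apod had 101 counts, the actin-severing protein Gsn 97 and the microfibril protein Mfap5 77, each in all 7 cells. Of the collagen genes, Col1a2 had 18 counts in all 7 cells, Col1a1 15 in 5 and Col3a1 14 in 4.

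Genes outside the fixed list led these cells as well. Igfbp6, which binds insulin-like growth factors, had 310 counts in all 7 cells, or 106 per 10000, and 0.00778 per 10000 in neurons. The tight junction gene Cldn1 had 29 counts in 6 cells, Thbs4 42 in 6 and Prelp 27 in 6. Itgb4, the integrin of hemidesmosomes, had 53 counts in all 7, and 1 count in the 25 endothelial-like cells. Slc16a1 and Ocln, of the barrier list, had 8 of 9 and 2 of 2 member counts in the fibroblast-like cells. The name fibroblast-like rests on the listed fibroblast genes only, and whether another cell type fits these cells better was not tested. Cav1, the coat protein of caveolae, had 35 counts in all 7 and 49 in 18 endothelial-like cells. Mitochondrial counts ran higher than in other members, with a median of 365 per 10000, against 181 in endothelial-like cells. Over all members only Mgp of 10 tested fibroblast genes passed the rule, since Set 3 held no fibroblast-like cell and a gene needs all 3 sets.

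The 2 cells with both profiles were on plates 6 and 8. The first, of 4231 counts, held 6 core endothelial and 64 fibroblast counts, and the second, of 7215 counts, held 18 and 40. The second also had 20 Rgs5 counts. Neuron genes stood at 182 and 208 per 10000 in them.

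The 5 glial-like cells were 1 on plate 7 and 4 on plate 8, so all came from Set 2, and 1 of them was the plate 8 cell of the shared barcode. They held 104 to 183 glial counts, of which Apoe, a lipid carrier made by satellite glia, gave 82 to 131. Fabp7, a satellite glial marker, had 2 to 27 counts in each, and S100b had 10 counts over all 5. Erbb3 had no count. Without the cell of the shared barcode, the other 4 held 426 to 651 per 10000 of the glial genes. Neurons also carried glial transcripts, with a median of 7.95 per 10000, against 249 to 651 in the 5 glial-like cells. The highest neuron, a cell of cluster 2, held 737, and the highest of clusters 1 and 4 held 105.5 and 124. No member lay above that cluster 2 cell. Over all members 0 of 9 tested glial genes passed the rule, which needs all 3 sets.

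The 15 cells of no profile had 1536 to 18608 counts, with a median of 2015, and came from 6 plates, 12 of them from Set 2. They held 15 core endothelial counts in all, or 2.68 per 10000, and 11 of the 15 had none of the 5 endothelial markers. Sympathetic neuron genes stood at 203 to 386 per 10000 in them, with a pooled level of 283.5, against 328 in neurons. By cluster that neuron level was 437, 264 and 147 in clusters 1, 2 and 4, and the other cluster 3 cells held 221. Counts of these genes in the cells of no profile were 48 to 489 per cell. The member of 18608 counts, on plate 10, had 489 of these counts, 112 of them Npy, and 3 core endothelial counts, all Egfl7. Without the 2 of them with the shared barcode, 13 cells remained, with 288 per 10000.

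Neuronal transcripts were present in every member, in amounts that differed with content. An endothelial-like cell held 26.2 counts of the 17 sympathetic neuron genes on average, where a neuron of the same plates held 1153, which is 2.27%. A fibroblast-like cell held 3.11%, a glial-like cell 6.14% and a cell of no profile 9.28% of the counts in neurons of their plates. These shares rest on means, and the highest cells of no profile held 272 and 489 counts. The median counts were 25 in endothelial-like, 28 in fibroblast-like and 60 in glial-like cells, and 57 in cells of no profile. By median the last 2 classes were thus alike. Npy, the co-transmitter of sympathetic neurons, was found in 24 of the 25 endothelial-like cells with 152 counts. Across the 17 genes the log2 mean counts of endothelial-like cells and of neurons of the same plates had an r of 0.968, a description over genes. The cDNA of a plate was pooled before amplification, and the part this has in these counts was not tested.

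Over all members, the 20 with the largest ratio of those at 0.5 per 10000 or more were Rbp7, Cav1, Gimap6, Gpihbp1, Cxcl12, Ly6a, Mgp, Mustn1, Srgn, Flt1, Tmem204, Plvap, Tmem88, Cd34, Ecscr, Adamts1, Anxa3, Itgb4, Txnip and Podxl. Rbp7, a retinol binding protein, had 90 of its 96 counts in endothelial-like cells, and Gimap6 68 of 69. The 7 lower genes were Mt3, Asl, B230312C02Rik, Elp6, Hand2, mt-Tq and 2900011O08Rik. Hand2, a transcription factor of sympathetic neurons, had 9 counts in 7 members, at 0.446, 0.562 and 0.279 per 10000 by set, against 2.44, 2.48 and 1.81 in neurons. Mt3, the neuronal metallothionein, had 4 counts, at 0.213 per 10000 against 4.51. Among the genes of highest level were Malat1, Sncg, Olfr1109, mt-Rnr2, Tmsb4x, Fth1, RP23-99K2.3, mt-Cytb and B2m. The nuclear RNA Malat1 stood at 356, 179.5 and 343 per 10000 by set in members and 125, 103 and 123 in neurons.

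Most markers of other cell types were at or near 0. Of the macrophage genes measured, Cd68 had 4 counts in 4 members and Aif1, Csf1r and Ctss none. Hba-a1 of red cells had 1 count, the fat cell genes Cfd and Plin1 none, and the dividing cell marker Mki67 1. Pcna, which serves DNA replication and repair, had 19 counts in 14 members, at 1.01 per 10000 against 0.470 in neurons. Cidea of fat cells had 8 counts, at 0.427 per 10000 against 0.797 in neurons, and the muscle genes Acta1 and Mylpf 2 and 3. Lymphocyte genes were not analysed here. These totals are of 187436 counts, in which no count allows up to 0.160 per 10000.

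By plate, members made up 1.30% of cells on plate 10 to 14.6% (12 of 82) on plate 8. The mean share over plates was 9.54% ± 4.64 (SD, n = 4) for Set 2, 4.52% ± 1.85 (n = 4) for Set 1 and 3.70% ± 2.10 (n = 3) for Set 3. The largest difference between sets, 5.84 percentage points, had p = 0.0973 in an exact permutation test over the 11550 arrangements of the plates. It was 2.57 points without the cells of no profile (exact permutation p = 0.459) and 0.815 between the other sets without Set 2 (exact permutation p = 0.6). Plates of a set share their mice, so this p measures the spread between plates. Endothelial-like cells were spread over the sets as 12, 6 and 7, while 6 of 7 fibroblast-like cells, all 5 glial-like cells and 12 of 15 cells of no profile were in Set 2.

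**Figure D5:**
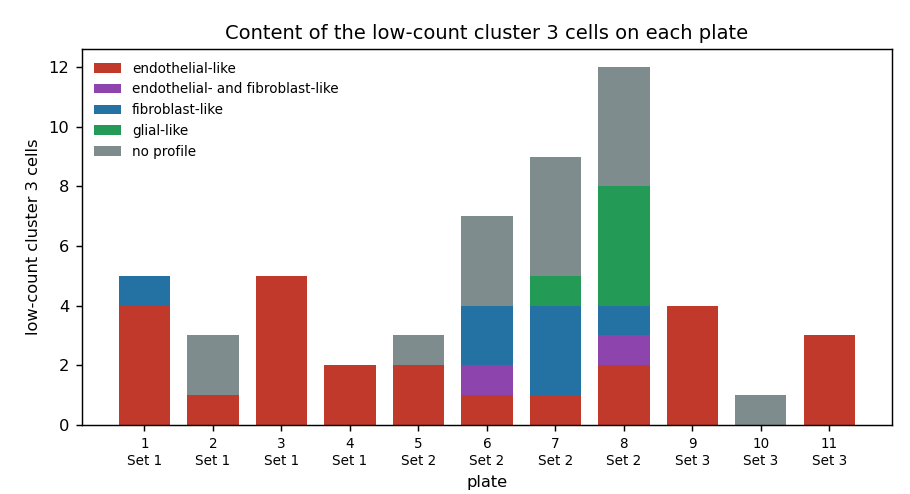
Number of members on each plate (x, with its set), stacked by content. Plate 8 held 12 members and plate 10 held 1, and glial-like cells appear on plates 7 and 8 only.

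The plate share of members was set against 3 measures that the rule did not use. With the share of wells sorted in gate A000, read here as neither tracer, r was 0.114 (permutation p = 0.716) and rho -0.0963 (permutation p = 0.783) over 11 plates. This share ran from 35.4% to 37.5% on plates 1 to 10 and was 27.2% on plate 11. With so little spread, these values cannot decide whether there was a relation. With the share of gate A555 wells, named for the CTB-555 dye, among wells sorted on a dye, r was -0.168 (permutation p = 0.615) and rho -0.155 (permutation p = 0.655). With the median counts of the plate's neurons, r was 0.362 (permutation p = 0.276) and rho 0.445 (permutation p = 0.174). All 3 adjusted p-values of r were 0.716 by permutation. Without the 2 plates farthest from the median of each measure, r was 0.0564, -0.195 and 0.00112. With values centred on their set, r was -0.0386, -0.425 and -0.105 (exact permutation p = 0.927, 0.220 and 0.839).

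Members could not be tied to wells or to a gate. Gate A000 was recorded for 374 of 1039 wells, always at the same 36 of 96 positions, 18 of them on all 11 plates. Members fell in 31 of the 96 barcodes that every plate uses, 16 of these on more than 1 plate and 1 on 5 plates.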

How the data were processed

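Each deposited value is a natural log, ln(1 + x), where x is the gene's counts per 10000 of its cell, as read from the numbers. Counts were recovered as 10000-scaled values divided by the smallest non-zero value of the cell, and 100% of non-zero values lay within 0.001 of a whole number. Cluster numbers and sort gate names are the authors' categories and have no unit. The labels' protocols describe 96-well sorting, pooling of cDNA before PCR and 3'-end libraries; they name no molecular identifiers, so intervals cover counting error only. Per the submitters' processing notes, STAR 2.5.3a, featureCounts 1.5.3, SAMtools 1.4.1, Seurat and GRCm38 were used; how clusters were set was not given in the sources used here.

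Counts were summed over members and over the cells of clusters 1, 2 and 4 in each set, and a gene was called at a ratio of at least 4 in all 3 sets, with a sum of 0 set to 3 counts. Plate shares were compared by exact permutation, and relations over plates by 100000 permutations with Benjamini-Hochberg adjustment. The gene calls were tested on simulated data. Alternatives were other count limits, filters, ratios, thinning, leaving out a set, plate 8, the cells of no profile or the 3 cells of the shared barcode, the last 3 and the thinning to 1500 chosen after the data were seen. The members, lists and limits were chosen with earlier results of these data known. Named are the 7 markers, up to 4 genes of highest level per list, the 20 higher and 10 lower genes of most extreme median ratio, the 10 of highest level and up to 5 marker promoters; some of these are not reported here. Genes outside this rule (the leading genes of fibroblast-like cells, the 5 genes of the shared barcode and others given for single cells) were chosen after their values were seen. Promoters and positions are from RefSeq GRCm38.p6. Software was Python 3.11.15, scipy 1.17.1, pandas 2.3.3, matplotlib 3.10.9 and numpy 2.4.6.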

Additional observations from a re-analysis of the deposited data

Results flagged for a closer look

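On plate 2 of Set 1, 37.5% of wells were recorded in gate A000, where the other 3 plates of the set had 36.5% each. The difference is 36 wells in place of 35 of 96, and the gap set this plate apart in 1 of 8 groups of plates that were looked at, when about 1 in 20 would be set apart by chance. Plate 2 held 3 members among 85 cells.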

How the results depend on the processing

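Of 105 recomputed values, 79 kept their direction and side of the threshold or stayed within 1.5 times or 1 SD of the value given, 23 moved and 3 changed sign. The A000 relation had r = -0.0622 without the cells of no profile and -0.171 (without Set 2) to 0.221 with 1 set left out, and the A555 relation -0.657 to 0.153 (without Set 1). The 353 higher genes became 481 to 667 with 1 set left out, most without Set 2 (the rule then needs 2 sets), 162 at a mean level of 0.5, 636 at a ratio of 2, 214 at 8 and 13 with a pseudocount of 1. The 7 lower genes became 13 to 42 with 1 set left out, 15 without the cells of no profile, 19 with the mean over cells, 137 at a ratio of 2, 1 at 8 and 0 with the pseudocount. The 27 members with endothelial content became 15 to 20 with 1 set left out and 2 of 7 cells thinned to 5000 counts, which removes 47 members. Over all members the median endothelial core level of 12.8 per 10000 became 5.78 to 58.3 with 1 set left out, the mural 2.46 became 0 to 22.7 and the glial 18.1 became 17.3 to 20.9, and the upper values were without Set 2. The share of all members whose summed level lay above the highest neuron, whatever their profile, was 59.3% for endothelial core genes, 29.6% for mural, 27.8% for fibroblast and 0% for glial genes. For glial genes that highest neuron was a cluster 2 cell of 737 per 10000, against a neuron median of 7.95. Without the 3 cells of the shared barcode there were 375 higher and 9 lower genes and 27 members with endothelial content. Depth limits the rest: a member of median depth shows only genes above a few per 10000, so a gene with no count in a cell is not shown to be absent. No paired analysis was possible, because the test of plate shares compares sets, whose plates share no animal. The other tests relate measures over plates and compare no groups. The ratios of members to neurons, which carry no test, were taken within each set.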
